A study of Saccharomyces cerevisiae with 8 samples.

Results

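The effect of a zinc overload on transcript levels was compared between yeast that expressed the plant defensin AhPDF1.1b and yeast that did not, by the difference of the 2 zinc effects over all 8 arrays of the series. AhPDF1.1b is a small cysteine-rich protein of the metal-tolerant plant Arabidopsis halleri. All cells were Saccharomyces cerevisiae BY4741, a haploid Mat a strain with his3, leu2, met15 and ura3 deletions, and all carried the empty pFL38H vector with its HIS3 marker. AhPDF1.1b yeast (WTD) expressed the defensin from plasmid pYX212 under the promoter of triose phosphate isomerase, whereas the labels name no vector in its place for the yeast without AhPDF1.1b, called WT yeast here. Both yeasts grew as colonies on a solid minimal medium with glucose and ammonium nitrate that held 20 mM ZnSO4 or no added zinc (control medium), and RNA was taken at the same colony diameter in all 4 conditions. Each condition had 2 biological replicates, that is, 2 arrays of AhPDF1.1b yeast under zinc, 2 of AhPDF1.1b yeast on control medium, 2 of WT yeast under zinc and 2 of WT yeast on control medium. The labels say no more on how the replicates were grown, so the tests measure the spread between these pairs of samples.

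Zinc is a cofactor of many enzymes and regulators, and yeast keeps its free level low. When zinc is scarce, the activator Zap1 turns on the uptake transporters Zrt1 and Zrt2. When zinc is in excess, the vacuolar transporter Zrc1 stores it, uptake falls, and genes for iron uptake are turned on, as zinc interferes with iron metabolism. The difference of zinc effects asks for each gene whether expression of AhPDF1.1b went with another response to the same zinc supply. It was computed on the log2 scale as zinc minus control in AhPDF1.1b yeast, less zinc minus control in WT yeast, so that a positive value means a zinc effect that was more positive in AhPDF1.1b yeast. Log2 signals of a gene are given in the order of its 2 arrays.

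The arrays held 6226 genes after averaging, 4060 of them with a gene symbol. Replicates correlated at 0.996 to 0.998 across genes, with a median absolute difference of 0.0726 to 0.0959 on the log2 scale. LEU2 and MET17, which the strain lacks, gave log2 signals of 5.54 to 5.79. Of the genes of a cells, MFA1, which encodes the a pheromone, and the receptor gene STE2 were well above that level on all arrays, and their zinc effects are given with the mating genes below. STE6, MFA2, BAR1, AGA2 and ASG7 were above it too but fell with zinc in both yeasts. Their lowest signals, all under zinc, were 8.57, 7.65, 7.14, 6.55 and 7.22 in the same order. Among the genes of alpha cells, MF(ALPHA)2 stayed at 5.66 to 5.92, whereas MF(ALPHA)1 gave 5.84 to 8.41, STE3 6.65 to 7.19 and SAG1 7.62 to 8.12. Under zinc the means of BAR1, AGA2 and ASG7 were below that of SAG1 in both yeasts. The plasmid marker URA3 had log2 signals of 14.40 to 14.54 under zinc and 14.16 to 14.49 on control medium in AhPDF1.1b yeast, against 15.55 to 15.64 under zinc and 15.40 to 15.50 on control medium in WT yeast, and its zinc effects did not differ detectably (difference 0.00, SE 0.15). No probe was named for AhPDF1.1b. A difference between the yeasts was called for 13 of the 381 genes with a condition mean at or under the level of the deleted genes, and for 38 of the 52 genes with a condition mean over 14. The sources used here do not say whether the brightest signals were saturated.

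The zinc response differed between the yeasts for 2095 of the 6226 genes (33.6%) at an adjusted p under 0.05 in limma's moderated test, with 2 arrays a condition and 4 conditions in one fit. The effect was more positive in AhPDF1.1b yeast for 1100 genes (17.7%) and more negative for 995 (16.0%). Zinc itself changed 2851 genes (45.8%) in AhPDF1.1b yeast, against 3695 (59.3%) in WT yeast. A zinc effect of at least 1 on the log2 scale was reached by 214 genes in AhPDF1.1b yeast, against 457 in WT yeast. Across all genes the zinc effects of both yeasts correlated at r = 0.649 (rho = 0.607), a description over genes that are not independent. Their SD was 0.432 in AhPDF1.1b yeast, against 0.596 in WT yeast, and the slope of the AhPDF1.1b values on the WT values was 0.469.

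The 2095 genes were then sorted by the tests of zinc in each yeast. A zinc effect was called weakened when it passed the test in WT yeast and was smaller in AhPDF1.1b yeast, with the same sign or without passing the test there. It was called strengthened when it passed in AhPDF1.1b yeast and was smaller, with the same sign or without passing, in WT yeast. It was called reversed when it passed in both with opposite signs. Weakening was seen for 1381 genes (22.2% of all), strengthening for 463 (7.44%) and reversal for 214 (3.44%), and 37 genes passed neither zinc test. The weakened effects were 670 rises and 711 falls, the strengthened ones 293 rises and 170 falls. Of the reversed effects, 141 were a fall in AhPDF1.1b yeast and a rise in WT yeast, and 73 were a rise in AhPDF1.1b yeast and a fall in WT yeast. With classes taken from the signs and sizes of the estimates alone, 932 effects were weakened, 261 strengthened and 902 reversed, since 881 of the weakened and 323 of the strengthened effects passed the zinc test in only one yeast.

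**Figure D1:**
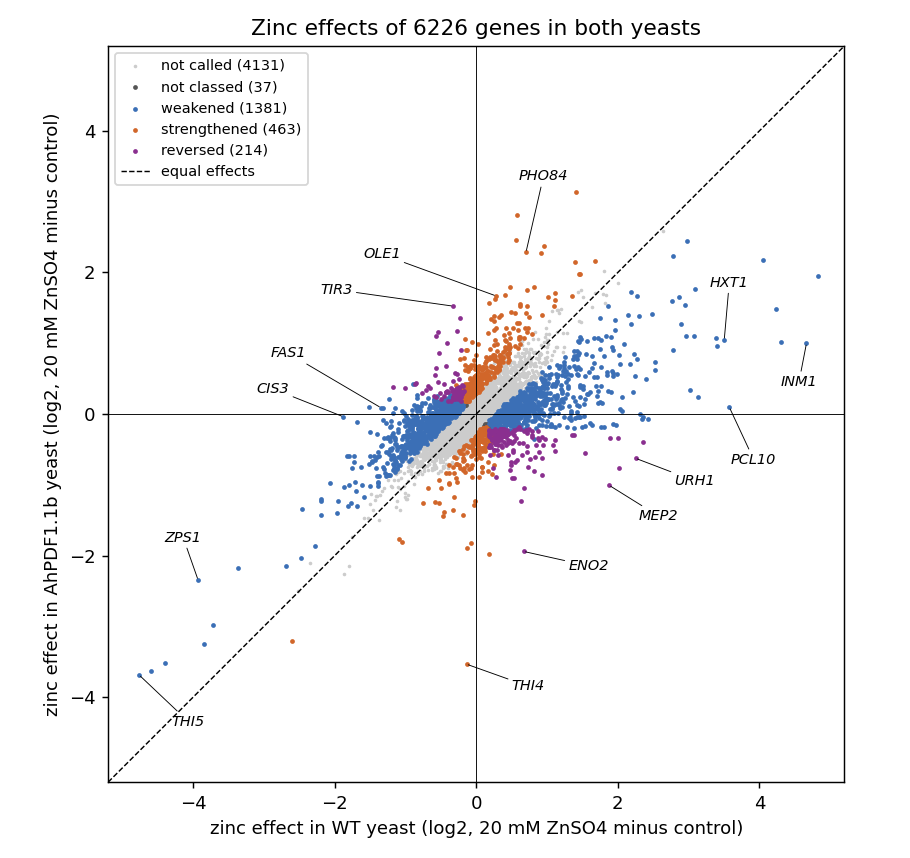
Zinc effect of each gene in AhPDF1.1b yeast (vertical axis) and in WT yeast (horizontal axis), both as log2 differences between zinc and control medium, means of 2 arrays each; points are genes, coloured by class with the number of genes, and the dashed line marks equal effects. The 1381 weakened effects lie on both sides of the horizontal axis, off the dashed line, and the 214 reversed effects lie in the upper left and lower right, where 902 of the 2095 called genes had estimates of opposite sign.

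Among weakened rises the zinc effect had a median of 0.10 in AhPDF1.1b yeast and of 0.73 in WT yeast. Among weakened falls the medians were -0.12 in AhPDF1.1b yeast and -0.65 in WT yeast. The difference was at least 1 on the log2 scale for 246 genes, 147 of them weakened, 31 strengthened and 68 reversed. It lay mostly on the zinc medium: the yeasts differed more under zinc than on control medium for 1860 of the 2095 genes (88.8%), against 73.9% of all genes tested. The median absolute difference between the yeasts among the 2095 genes was 0.47 under zinc and 0.11 on control medium. The yeasts lay on separate slides under zinc but were balanced over slides on control medium. The difference under zinc thus includes any slide effect, and its part in this contrast was not tested.

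The arrays lay on 2 slides. Slide 1 held both zinc arrays of AhPDF1.1b yeast and slide 2 both zinc arrays of WT yeast, while each control condition had 1 array on either slide. Slide and yeast therefore cannot be told apart among the zinc arrays themselves, but each zinc effect can be taken within its slide, from the control array next to it. Within slides the difference kept its sign for all 2095 genes, with a median size of 0.52, against 0.53 over all arrays. With slide as a block the test called 1258 genes, 1244 of them among the 2095, and the class stayed the same for 817 weakened, 218 strengthened and 133 reversed effects. A term for slide itself passed for 0 genes in limma after adjustment (104 at an unadjusted p under 0.05). That term is estimated from the control arrays alone, as each zinc condition lay on 1 slide. It cannot measure a slide effect among the zinc arrays.

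**Figure D2:**
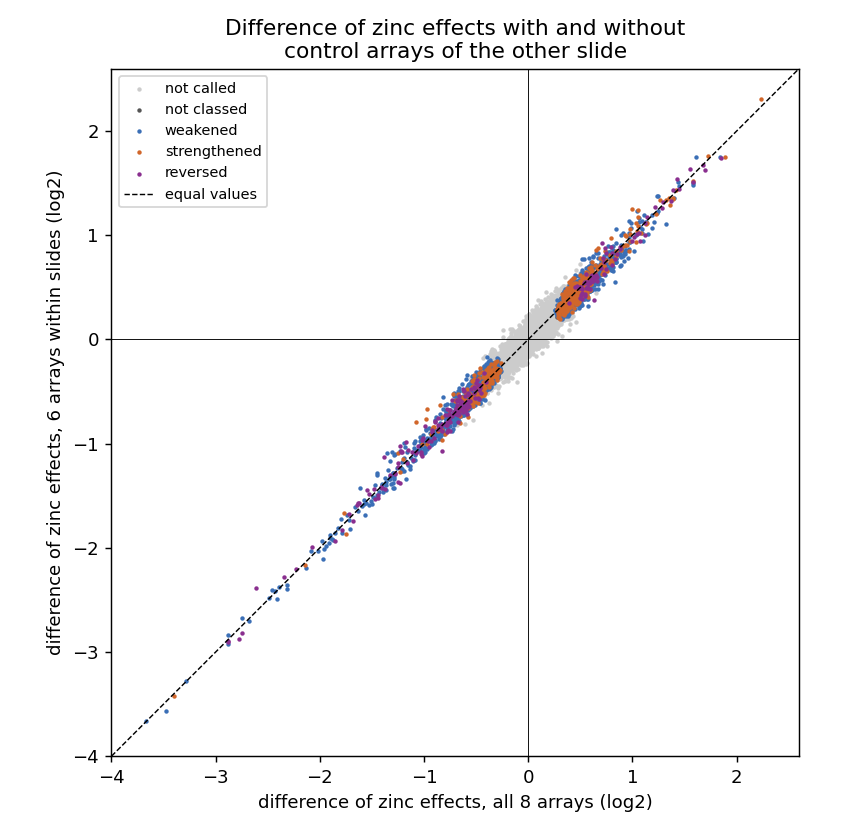
Difference of zinc effects from the 6 arrays compared within slides (vertical axis) and from all 8 arrays (horizontal axis), log2, each point a gene coloured by class. Points follow the line of equal values, and no gene called over all arrays has the opposite sign within slides (0 of 2095). The 6 arrays are part of the 8, so the axes are not independent.

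The weakened rises were led by INM1, PCL10, AMD2, GPP2, FRM2, HXT1, YRO2 and DAK2, the named genes with the largest differences in this set. INM1, which encodes an inositol monophosphatase, had log2 signals of 8.87 and 8.90 under zinc and 7.87 and 7.90 on control medium in AhPDF1.1b yeast, against 12.52 and 12.27 under zinc and 7.71 and 7.75 on control medium in WT yeast. The WT zinc arrays stood far above the other 6, and the AhPDF1.1b zinc arrays were above both controls without reaching them. Zinc raised INM1 by 1.00 in AhPDF1.1b yeast and by 4.66 in WT yeast, a difference of -3.67 (SE 0.12, adjusted p = 2.28e-08, limma) or 12.7-fold. PCL10, a cyclin that directs the kinase Pho85 to glycogen synthase, gave 8.27 and 8.24 under zinc and 8.06 and 8.26 on control medium in AhPDF1.1b yeast, against 11.58 and 11.58 under zinc and 7.98 and 8.02 on control medium in WT yeast. Only the WT zinc arrays were high, and in AhPDF1.1b yeast the zinc and control arrays overlapped. The difference was -3.48 (SE 0.11, adjusted p = 2.28e-08), or 11.2-fold.

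GPP2, a glycerol phosphate phosphatase induced by osmotic stress, had signals of 10.63 and 10.66 under zinc and 10.29 and 10.31 on control medium in AhPDF1.1b yeast, against 13.11 and 12.99 under zinc and 10.04 and 10.01 on control medium in WT yeast. It rose in both yeasts, by 0.35 in AhPDF1.1b yeast and by 3.02 in WT yeast (difference -2.68, adjusted p = 5.36e-08). For HXT1, the low-affinity glucose transporter of cells rich in glucose, the signals were 10.89 and 11.01 under zinc and 9.92 and 9.89 on control medium in AhPDF1.1b yeast, against 12.95 and 12.99 under zinc and 9.43 and 9.50 on control medium in WT yeast. The zinc arrays of both yeasts were above their controls, and those of AhPDF1.1b yeast lay in between. The difference was -2.46 for HXT1, -2.43 for YRO2, a membrane protein related to Hsp30, and -2.88 for AMD2, a putative amidase whose control arrays were already higher in AhPDF1.1b yeast (9.19 and 9.40) than in WT yeast (8.32 and 8.44). FRM2, a nitroreductase-like enzyme, and DAK2, a dihydroxyacetone kinase, rose in WT yeast by 2.42 and 2.35, while their zinc effects in AhPDF1.1b yeast were -0.06 and -0.07 and did not pass the test. DAK1, the other dihydroxyacetone kinase and chosen after its values were seen, was not called, with zinc effects of 0.03 in AhPDF1.1b yeast and 0.18 in WT yeast.

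The weakened falls with the largest differences were CIS3, EGT2, ZPS1, ASC1, GSY1, FAS1, CTT1 and HXT6. CIS3, a mannoprotein of the cell wall, had log2 signals of 11.35 and 11.57 under zinc and 11.31 and 11.68 on control medium in AhPDF1.1b yeast, against 9.67 and 9.93 under zinc and 11.59 and 11.78 on control medium in WT yeast. Both WT zinc arrays lay below the other 6, and within AhPDF1.1b yeast the media overlapped. CIS3 fell in WT yeast by 1.88, and the difference was 1.84 (SE 0.19, adjusted p = 5.43e-05). FAS1, the beta subunit of fatty acid synthase, gave 12.42 and 12.28 under zinc and 12.29 and 12.22 on control medium in AhPDF1.1b yeast, against 11.07 and 11.25 under zinc and 12.47 and 12.54 on control medium in WT yeast. Here too the WT zinc arrays alone were low (difference 1.44, SE 0.12, adjusted p = 1.18e-05).

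ZPS1, a cell surface protein that Zap1 induces when zinc is scarce, fell in both yeasts. Its signals were 7.39 and 7.43 under zinc and 9.71 and 9.81 on control medium in AhPDF1.1b yeast, against 7.07 and 7.06 under zinc and 11.03 and 10.96 on control medium in WT yeast. The yeasts came close under zinc, where they differed by 0.35, and stood apart by -1.24 on control medium, which together made the difference of 1.59 (SE 0.10, adjusted p = 1.65e-06). The effects of EGT2, an endoglucanase of cell separation, ASC1, a protein of the small ribosomal subunit, and CTT1, cytosolic catalase, were -1.51, -1.69 and -1.31 in WT yeast, and in AhPDF1.1b yeast none of them passed the test (0.10, -0.11 and 0.09). HXT6, a high-affinity glucose transporter, and GSY1, a glycogen synthase, fell in WT yeast by 0.89 and 1.23 as well, with differences of 1.32 and 1.45. Their effects in AhPDF1.1b yeast, 0.42 and 0.22, did not pass the test. The control arrays of HXT6 in AhPDF1.1b yeast were 13.54 and 14.11. For GSY1 the yeasts differed by 0.32 under zinc and by -1.12 on control medium.

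**Figure D3:**
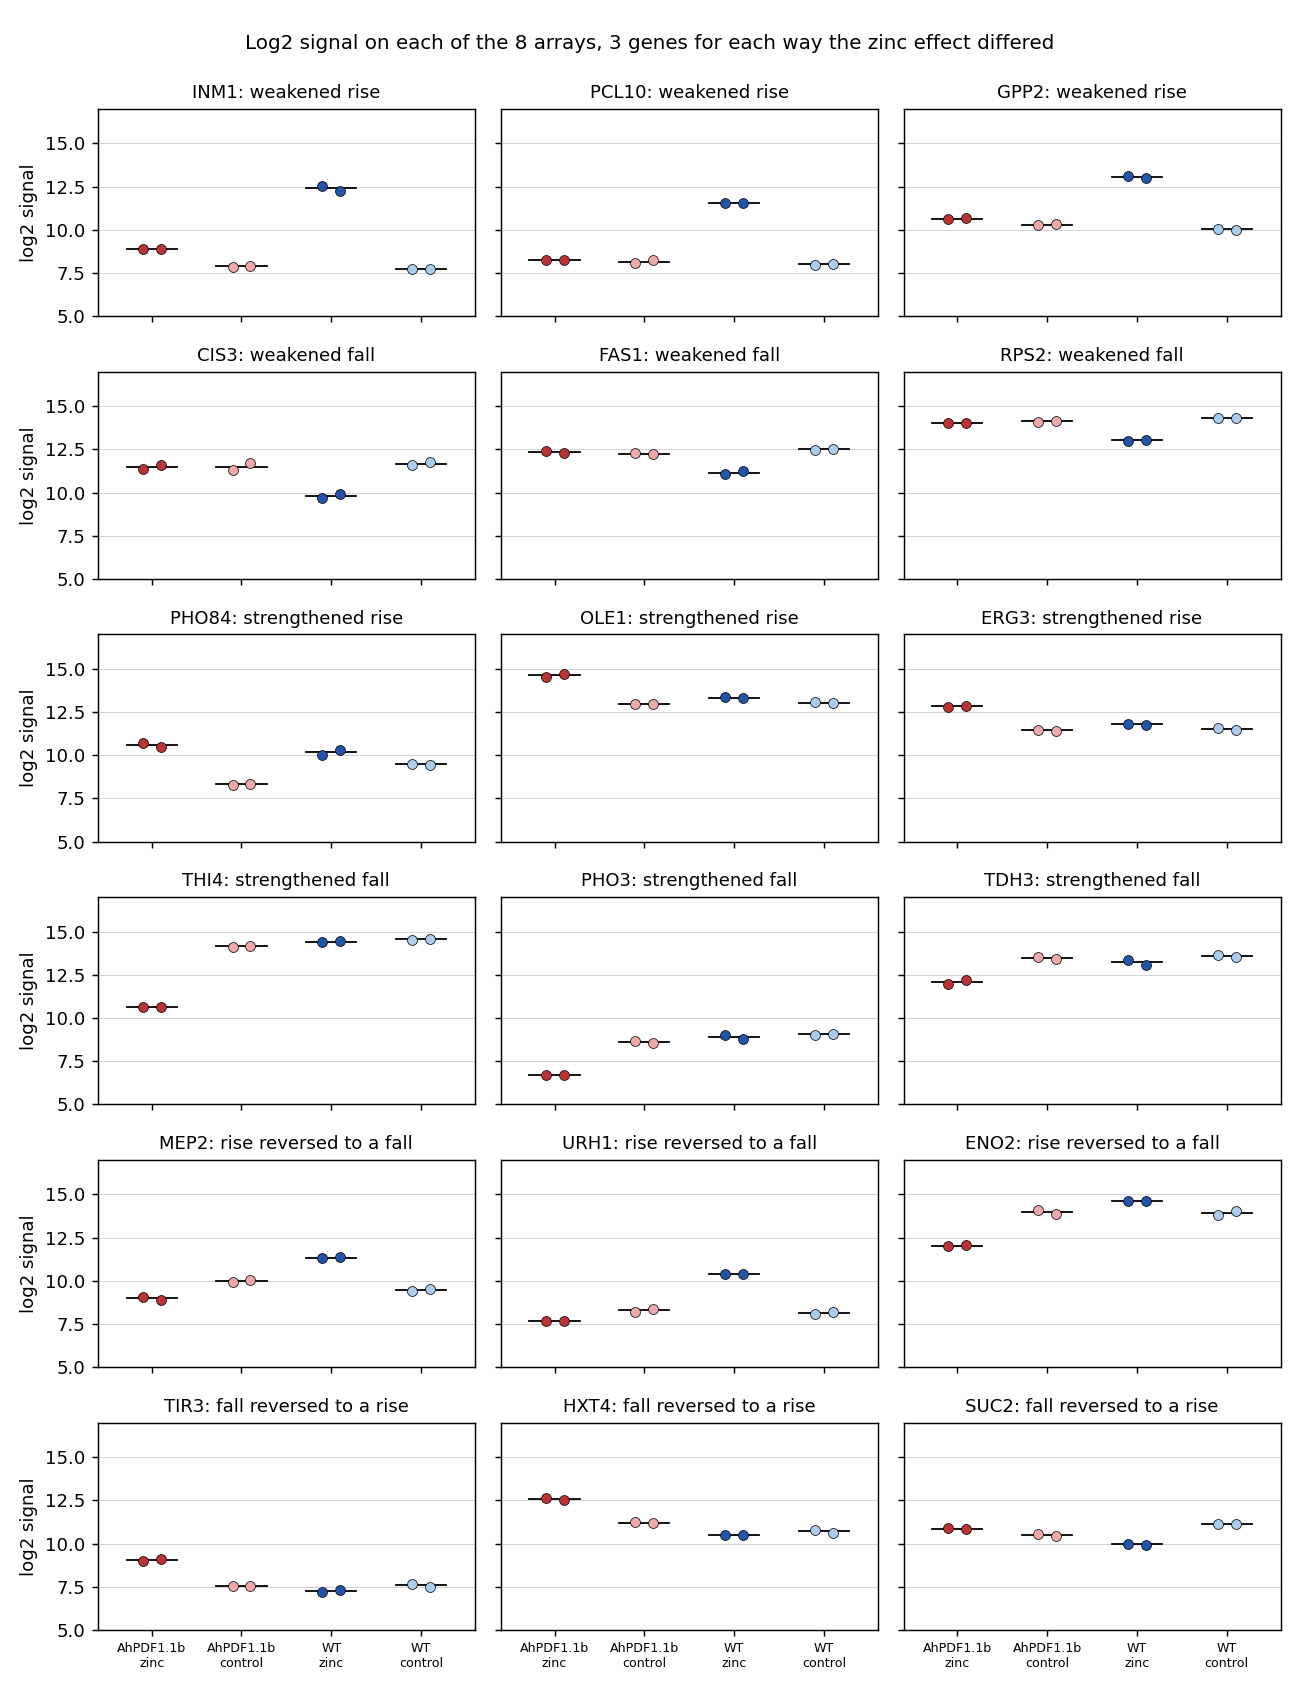
Log2 signal of 18 genes on each array, 3 genes for each set of zinc effects, with AhPDF1.1b yeast under zinc and on control medium left of WT yeast under zinc and on control medium; points are single arrays and black lines the means of 2 arrays. In the rows of weakened effects the WT zinc arrays stand apart (INM1 at 12.52 and 12.27), in the rows of strengthened effects the AhPDF1.1b zinc arrays do (THI4 at 10.64 and 10.63) except for PHO84, whose AhPDF1.1b controls are lowest (8.29 and 8.32), and in the reversed rows the zinc arrays of the yeasts move to opposite sides of their controls.

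The strengthened rises were led by PHO84, OLE1, PHO89, ICL1, ERG25, ERG3, NRG2 and RTA1 among named genes. PHO84, the high-affinity phosphate transporter, had log2 signals of 10.71 and 10.49 under zinc and 8.29 and 8.32 on control medium in AhPDF1.1b yeast, against 10.04 and 10.31 under zinc and 9.52 and 9.42 on control medium in WT yeast. The lowest arrays were the controls of AhPDF1.1b yeast. The difference of 1.58 (SE 0.14, adjusted p = 2.23e-05) was made up of 0.42 between the yeasts under zinc and -1.16 on control medium. PHO89, the sodium-coupled phosphate transporter, had the same order, with 9.23 and 9.00 under zinc and 7.41 and 7.57 on control medium in AhPDF1.1b yeast, against 8.97 and 8.99 under zinc and 8.71 and 8.73 on control medium in WT yeast. OLE1, the only fatty acid desaturase of this yeast, behaved otherwise. Its signals were 14.53 and 14.74 under zinc and 12.96 and 12.97 on control medium in AhPDF1.1b yeast, against 13.36 and 13.30 under zinc and 13.09 and 13.01 on control medium in WT yeast, and the AhPDF1.1b zinc arrays were above all others (difference 1.39, SE 0.11, adjusted p = 1.18e-05).

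ICL1, isocitrate lyase of the glyoxylate cycle, rose by 1.68 in AhPDF1.1b yeast and by 0.41 in WT yeast. The sterol genes ERG25 and ERG3 rose by 1.06 and 1.39 in AhPDF1.1b yeast, and in WT yeast ERG25 did not pass the test (-0.16) while ERG3 rose by 0.26. NRG2, a repressor of glucose-repressed genes, and RTA1, a membrane protein, rose by 1.02 and 1.37 in AhPDF1.1b yeast, with values of -0.07 and 0.32 in WT yeast.

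The strengthened falls held the largest single difference of either kind of strengthening, that of THI4, which makes the thiazole part of thiamine. THI4 had log2 signals of 10.64 and 10.63 under zinc and 14.13 and 14.20 on control medium in AhPDF1.1b yeast, against 14.39 and 14.45 under zinc and 14.55 and 14.56 on control medium in WT yeast. The AhPDF1.1b zinc arrays stood apart from the other 6, which spanned 14.13 to 14.56. THI4 fell by 3.53 in AhPDF1.1b yeast with zinc, or 11.6-fold, and its effect in WT yeast (-0.14) did not pass the test, a difference of -3.40 (SE 0.09, adjusted p = 1.37e-08). PHO3, an acid phosphatase repressed by thiamine, gave 6.71 and 6.71 under zinc and 8.68 and 8.53 on control medium in AhPDF1.1b yeast, against 9.04 and 8.80 under zinc and 9.01 and 9.08 on control medium in WT yeast (difference -1.77, adjusted p = 4.26e-06). PET18 had the same form, falling by 1.42 in AhPDF1.1b yeast with -0.19 in WT yeast.

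The other leading strengthened falls were MRH1, PGK1, TDH3, GDH3 and YAT1. MRH1, a plasma membrane protein and the paralogue of YRO2, fell by 1.28 in AhPDF1.1b yeast with -0.03 in WT yeast, whereas YRO2 was a weakened rise. PGK1, phosphoglycerate kinase, fell by 0.85 in AhPDF1.1b yeast, with 0.23 in WT yeast, and TDH3, the main glyceraldehyde phosphate dehydrogenase, fell by 1.35 in AhPDF1.1b yeast and by 0.33 in WT yeast. The carnitine acetyltransferase YAT1 fell in both yeasts, by 1.44 in AhPDF1.1b yeast and by 0.47 in WT yeast. GDH3, a glutamate dehydrogenase, had a difference of -0.98 that missed the threshold with slide as a block (-0.76, adjusted p = 0.0591).

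Among reversed effects, the larger set fell in AhPDF1.1b yeast and rose in WT yeast, led by MEP2, URH1, FCY22, ENO2, OYE3, YGP1, TDH2 and SCS7. MEP2, the high-affinity ammonium permease, had log2 signals of 9.04 and 8.91 under zinc and 9.91 and 10.05 on control medium in AhPDF1.1b yeast, against 11.33 and 11.36 under zinc and 9.42 and 9.52 on control medium in WT yeast. The zinc arrays of the yeasts lay on opposite sides of all 4 controls (difference -2.88, SE 0.11, adjusted p = 7.15e-08). URH1, which cleaves uridine, gave 7.68 and 7.64 under zinc and 8.20 and 8.37 on control medium in AhPDF1.1b yeast, against 10.36 and 10.41 under zinc and 8.07 and 8.20 on control medium in WT yeast. Its difference was also -2.88 (SE 0.11). ENO2, the enolase of growth on glucose, had 12.03 and 12.05 under zinc and 14.10 and 13.86 on control medium in AhPDF1.1b yeast, against 14.61 and 14.62 under zinc and 13.84 and 14.05 on control medium in WT yeast. Its controls overlapped between the yeasts, and the change was mainly the fall of 1.94 in AhPDF1.1b yeast (difference -2.61, SE 0.13, adjusted p = 4.89e-07).

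FCY22, a relative of the cytosine permease, OYE3, an NADPH dehydrogenase of the old yellow enzyme family, and YGP1, a secreted glycoprotein, rose in WT yeast by 2.01, 2.01 and 1.89 and fell in AhPDF1.1b yeast by 0.76, 0.33 and 0.34. TDH2, a second glyceraldehyde phosphate dehydrogenase, and SCS7, a hydroxylase of sphingolipids, fell by 1.22 and 0.86 in AhPDF1.1b yeast and rose by 0.63 and 0.93 in WT yeast. Over the 141 genes of this set the zinc effect had a median of -0.35 in AhPDF1.1b yeast and of 0.44 in WT yeast.

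The opposite reversal, a rise in AhPDF1.1b yeast with a fall in WT yeast, was led by TIR3, DSE4, HXT4, SUC2, SPL2, FAS2, GPH1 and ACC1. TIR3, a cell wall mannoprotein of anaerobic growth, had signals of 9.01 and 9.11 under zinc and 7.51 and 7.56 on control medium in AhPDF1.1b yeast, against 7.20 and 7.29 under zinc and 7.65 and 7.49 on control medium in WT yeast. The AhPDF1.1b zinc arrays were the highest by more than 1 log2 unit (difference 1.85, SE 0.11, adjusted p = 1.46e-06). HXT4, a glucose transporter of low glucose levels, gave 12.62 and 12.52 under zinc and 11.22 and 11.20 on control medium in AhPDF1.1b yeast, against 10.50 and 10.47 under zinc and 10.79 and 10.63 on control medium in WT yeast. SUC2, secreted invertase, moved further in WT yeast than in AhPDF1.1b yeast, with 10.91 and 10.82 under zinc and 10.56 and 10.42 on control medium in AhPDF1.1b yeast, against 9.99 and 9.90 under zinc and 11.11 and 11.13 on control medium in WT yeast. The difference was 1.59 for HXT4 and 1.56 for SUC2. DSE4, a glucanase of daughter cells, GPH1, glycogen phosphorylase, and SPL2, a regulator of phosphate transport, rose in AhPDF1.1b yeast by 1.15, 0.44 and 1.01 and fell in WT yeast by 0.54, 0.85 and 0.42.

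Described by pathway, glycolysis and fermentation moved to lower levels under zinc in AhPDF1.1b yeast than in WT yeast. Of 21 genes measured, 16 were called, 14 with a more negative effect in AhPDF1.1b yeast (16.0% of all genes were) and 2 with a more positive one. They fell into 7 weakened, 6 strengthened and 3 reversed effects, with a median effect of -0.26 in AhPDF1.1b yeast and 0.29 in WT yeast. Isoenzymes took different forms. ENO1, the other enolase, gave 12.99 and 12.94 under zinc and 13.24 and 13.05 on control medium in AhPDF1.1b yeast, against 15.04 and 15.05 under zinc and 13.29 and 13.20 on control medium in WT yeast, a weakened rise in place of the reversal of ENO2. TDH2, TDH3 and PGK1 are described above, and PFK2, a subunit of phosphofructokinase chosen after its values were seen, fell by 0.34 in AhPDF1.1b yeast and rose by 0.88 in WT yeast. PDC1, the main pyruvate decarboxylase and also chosen after its values were seen, was not called (0.44 in AhPDF1.1b yeast and 0.29 in WT yeast). TPI1, whose promoter drives AhPDF1.1b, had signals of 14.24 and 14.32 under zinc and 14.83 and 14.89 on control medium in AhPDF1.1b yeast, against 14.93 and 14.81 under zinc and 14.97 and 14.89 on control medium in WT yeast. It fell by 0.57 in AhPDF1.1b yeast and did not pass the test in WT yeast (-0.06). Probe sequences were not used here, so that near-identical genes such as ENO1 and ENO2, TDH1 to TDH3 or HXT6 and HXT7 could not be told apart with certainty.

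Glycogen genes showed the reverse. Of 18 genes of glycogen metabolism, 10 had a more positive effect in AhPDF1.1b yeast and 1, PCL10, a more negative one, with a median effect of 0.21 in AhPDF1.1b yeast and -0.23 in WT yeast. The 3 reversed genes were GPH1, the glycogen synthase GSY2, which was chosen after its values were seen (0.37 in AhPDF1.1b yeast and -0.36 in WT yeast), and UGP1, which makes UDP-glucose (0.33 and -0.71 in the same order). Under zinc AhPDF1.1b yeast differed from WT yeast by 0.51 for GPH1, 0.05 for GSY2 and 0.45 for UGP1. On control medium the yeasts differed by -0.78, -0.68 and -0.59 in the same order, AhPDF1.1b yeast being lower. Of 7 genes of trehalose metabolism, the other storage carbohydrate, 3 were called (42.9%, beside 33.6% of all genes), 2 more positive and 1 more negative. In glycerol metabolism 6 of 12 genes were called (50%, beside 33.6% of all genes), 3 in each direction. The phosphatases GPP1 and GPP2 parted, as GPP1 fell by 0.75 in AhPDF1.1b yeast with 0.08 in WT yeast. GPD1, the dehydrogenase of the step before them, fell by 0.99 in WT yeast with -0.02 in AhPDF1.1b yeast. Glucose transporters also split: HXT1 and HXT3 were weakened rises, HXT6 and HXT7 weakened falls, and HXT4 a reversal, HXT3 and HXT7 having been chosen after their values were seen.

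Of 19 thiamine genes measured, zinc lowered 14 and raised 0 in AhPDF1.1b yeast, against 9 lowered and 5 raised in WT yeast. The difference was called for 12 (63.2%, beside 33.6% of all genes), 4 more positive and 8 more negative in AhPDF1.1b yeast. THI5, of the family that makes the pyrimidine part of thiamine, had log2 signals of 8.39 and 8.38 under zinc and 12.07 and 12.06 on control medium in AhPDF1.1b yeast, against 7.58 and 7.55 under zinc and 12.33 and 12.32 on control medium in WT yeast. It was low on all 4 zinc arrays. It fell by 3.69 in AhPDF1.1b yeast and fell by 4.76 in WT yeast (difference 1.08, SE 0.09, adjusted p = 1.2e-05). THI5, THI11, THI12 and THI13 are near copies, all 4 were weakened falls, and they count as a single observation. Of these, THI11, THI12 and THI13 were chosen after their values were seen. THI20, a kinase of the pyrimidine branch, fell by 0.89 in AhPDF1.1b yeast and rose by 0.27 in WT yeast, so that THI20, THI4 and PHO3 ended lower in AhPDF1.1b yeast under zinc while the THI5 family ended higher there.

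**Figure D4:**
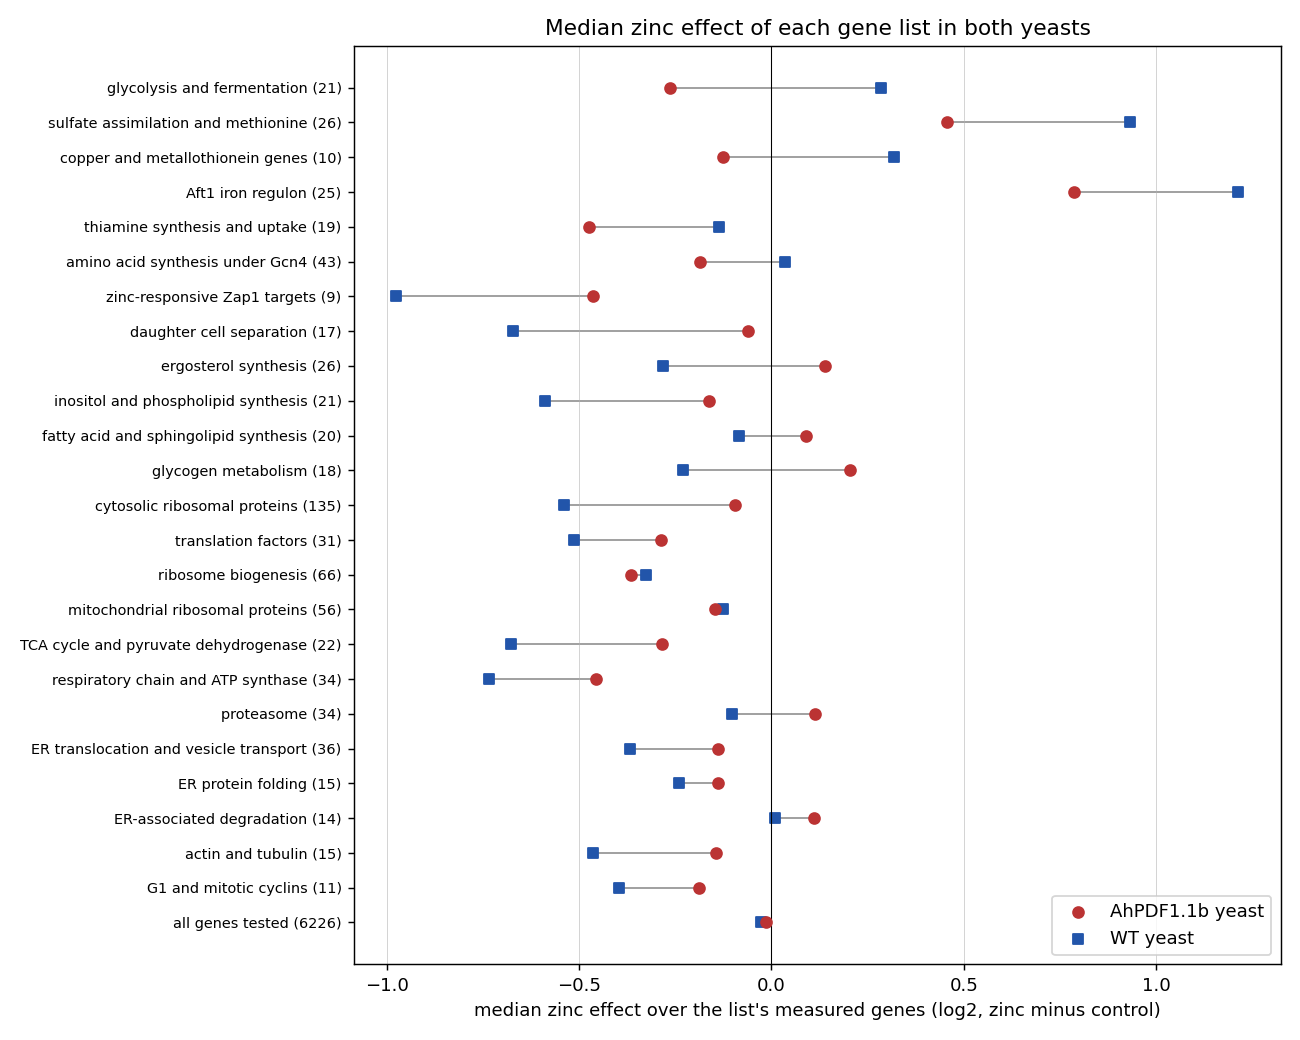
Median zinc effect (log2, zinc minus control) over the measured genes of 24 lists and over all genes, in AhPDF1.1b yeast (circles) and in WT yeast (squares); the number of genes stands in brackets. Medians of the ribosomal protein genes were -0.09 in AhPDF1.1b yeast and -0.54 in WT yeast, those of ribosome biogenesis genes -0.36 and -0.33 in the same order.

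Lipid genes leaned towards higher levels in AhPDF1.1b yeast under zinc. Of 26 genes of ergosterol synthesis 19 were called, 18 with a more positive effect (17.7% of all genes were), and the list had a median effect of 0.14 in AhPDF1.1b yeast and -0.28 in WT yeast. They comprised 9 weakened falls, 6 strengthened rises, 3 falls in WT yeast that were rises in AhPDF1.1b yeast, and ERG8, chosen after its values were seen, as the single gene of the other sign. ERG20, farnesyl pyrophosphate synthase, fell by 0.60 in AhPDF1.1b yeast and by 1.73 in WT yeast, and ERG10, which starts the pathway, fell by 1.04 in WT yeast with 0.05 in AhPDF1.1b yeast. In phospholipid and inositol synthesis 11 of 21 genes were more positive and 2 more negative (61.9% called, beside 33.6% of all genes). OPI3 and CHO2, the methyltransferases that make phosphatidylcholine, had differences of 1.24 and 1.03 and were weakened falls (-0.59 and 0.02 in AhPDF1.1b yeast, against -1.83 and -1.02 in WT yeast). In fatty acid and sphingolipid synthesis 7 of 20 genes were more positive and 3 more negative (50% called). FAS2 and ACC1, the alpha subunit of fatty acid synthase and acetyl-CoA carboxylase, rose by 0.36 and 0.42 in AhPDF1.1b yeast and fell by 1.00 and 0.87 in WT yeast, whereas the sphingolipid hydroxylases SUR2 and SCS7 were reversed the other way, SUR2 with -0.53 in AhPDF1.1b yeast and 0.89 in WT yeast.

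Of the 49 lists, the cytosolic ribosomal proteins, also the longest list, held the largest number of weakened genes. Of 135 genes measured, 85 were called, 81 with a more positive effect in AhPDF1.1b yeast, and 76 were weakened. Zinc lowered 100 of the 135 in WT yeast and raised 6, whereas in AhPDF1.1b yeast it lowered 32 and raised 11. RPS2, of the small subunit, had log2 signals of 14.04 and 14.05 under zinc and 14.10 and 14.15 on control medium in AhPDF1.1b yeast, against 12.97 and 13.06 under zinc and 14.33 and 14.33 on control medium in WT yeast. The WT zinc arrays were the lowest (difference 1.24, SE 0.09, adjusted p = 6.7e-06). RPS3 had a difference of 1.06 and RPL4A of 1.03. With slide as a block 50 of the 135 were called, 48 of them more positive. Ribosomal protein genes often come as near-identical pairs, and the probes of such pairs were not told apart here. Genes of ribosome assembly did not follow: 11 of 66 (16.7%) were called, 6 more positive and 5 more negative, and zinc lowered 43 in AhPDF1.1b yeast and 44 in WT yeast. Mitochondrial ribosomal proteins had 6 called in each direction of 56 (21.4% called), and 5 in all with slide as a block. Among 31 translation factors 8 were more positive and 1 more negative (29% called, beside 33.6% of all genes). EGD2, of the complex that binds nascent chains, and STM1, a ribosome-bound factor, both had differences of 0.85.

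**Figure D5:**
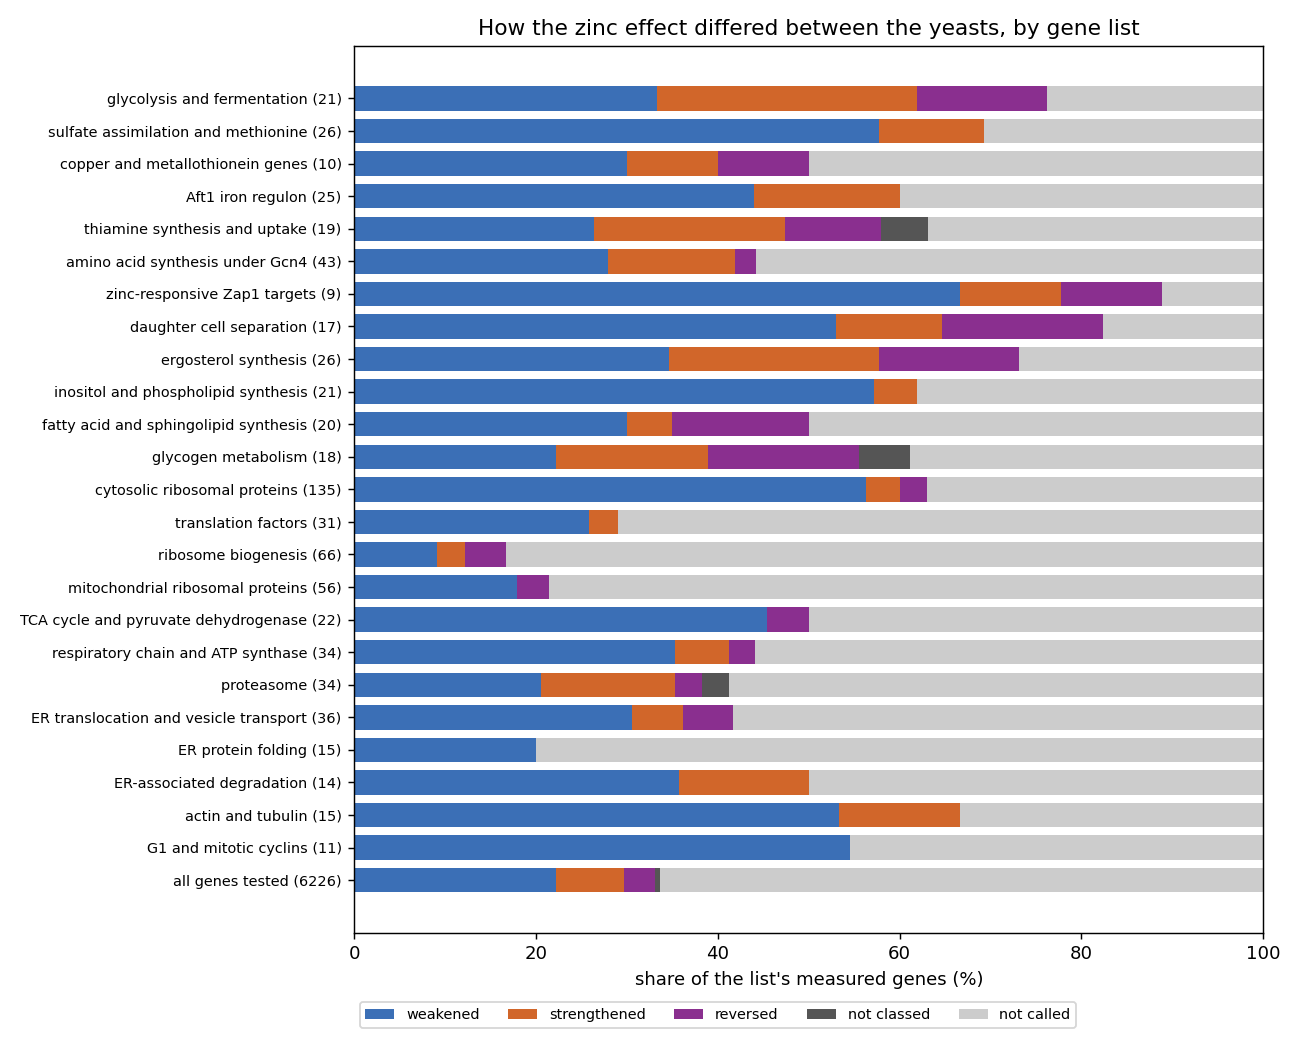
Share of the measured genes of each list (percent, number of genes in brackets) whose zinc effect was weakened, strengthened, reversed, called without a class, or not called. Over all 6226 genes 33.6% were called, against 63% of the cytosolic ribosomal proteins and 82.4% of the genes of daughter cell separation.

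Genes of daughter cell separation, which act at the end of mitosis, had 14 of 17 called, all with a more positive effect in AhPDF1.1b yeast. They were 9 weakened falls, 2 strengthened rises and 3 falls in WT yeast that were rises in AhPDF1.1b yeast. ASH1, a repressor placed in daughter cells, gave 9.51 and 9.47 under zinc and 8.82 and 8.86 on control medium in AhPDF1.1b yeast, against 8.40 and 8.62 under zinc and 9.02 and 9.15 on control medium in WT yeast (difference 1.22, SE 0.12, adjusted p = 4e-05). The zinc arrays of AhPDF1.1b yeast were above all controls and those of WT yeast below them. DSE1, of the same set of daughter cell genes, was a weakened fall with a difference of 0.89. Of 11 cyclin genes 6 were more positive and none more negative, all as weakened falls, among them the mitotic cyclin CLB1 (-0.95 in AhPDF1.1b yeast and -1.71 in WT yeast). In all 54.5% of the 11 were called, beside 33.6% of all genes. With slide as a block 2 of these cyclin genes were called. Among 35 genes of DNA replication 9 were more positive and 1 more negative. Their called share was 28.6%, beside 33.6% of all genes, and 3 genes were called with slide as a block. MCM2, of the replicative helicase, was more positive, with a rise of 0.80 in AhPDF1.1b yeast and -0.18 in WT yeast. In the actin and tubulin list 9 of 15 were more positive and 1 more negative (66.7% called), with 6 called with slide as a block. TPM1, a tropomyosin, fell by 0.29 in AhPDF1.1b yeast and by 1.20 in WT yeast, and TUB2, beta-tubulin, fell by 0.68 in AhPDF1.1b yeast and by 1.47 in WT yeast (difference 0.79, SE 0.10). ACT1 (difference 0.25, SE 0.15, adjusted p = 0.214) and the alpha-tubulin gene TUB1 (difference 0.00, SE 0.10, adjusted p = 0.989) were not called.

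Of the 22 genes of the citrate cycle and pyruvate dehydrogenase, zinc lowered 11 and raised 1 in AhPDF1.1b yeast and lowered all 22 in WT yeast. The difference was called for 11 of them (50%, beside 33.6% of all genes), all more positive. LPD1, a shared dehydrogenase subunit, fell by 0.31 in AhPDF1.1b yeast and by 1.02 in WT yeast, and IDH1, of isocitrate dehydrogenase, by 0.77 in WT yeast with -0.08 in AhPDF1.1b yeast. Of 34 respiratory chain and ATP synthase genes 12 were weakened falls such as ATP7 (-0.38 in AhPDF1.1b yeast and -1.22 in WT yeast), while 3 were more negative, COX7 as a reversal with -0.44 in AhPDF1.1b yeast and 0.42 in WT yeast. In all 44.1% of them were called, beside 33.6% of all genes, and with slide as a block 5 were more positive and 2 more negative. Heme synthesis split, with a weakened fall of the last enzyme HEM15 (difference 1.25) and a weakened rise of the earlier enzyme HEM12 (difference -1.29). The anaerobic wall genes DAN1 and TIR4 rose beside TIR3, by 0.90 each in AhPDF1.1b yeast, with -0.22 and -0.14 in WT yeast. DAN1 was near the level of the deleted genes (at most 5.79) outside AhPDF1.1b yeast under zinc. Its means were 5.96 in AhPDF1.1b yeast on control medium, and 6.03 under zinc and 6.25 on control medium in WT yeast. In the list of 15 hypoxic and anaerobic genes 8 were more positive and 1 more negative (60% called, beside 33.6% of all genes).

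Metal genes that differed were mostly weakened, much as called genes were in general (1381 of 2095). This held for 6 of the 8 called Zap1 targets and 11 of the 15 called genes of the iron regulon. ZRT1, the high-affinity zinc transporter, had log2 signals of 7.64 and 7.58 under zinc and 10.57 and 10.62 on control medium in AhPDF1.1b yeast, against 7.60 and 7.62 under zinc and 11.33 and 11.32 on control medium in WT yeast. The yeasts met under zinc, and the difference of 0.73 (SE 0.09, adjusted p = 0.000196) lay on control medium. Of the 9 Zap1 targets measured, 5 were more positive and 3 more negative in AhPDF1.1b yeast (88.9% called, beside 33.6% of all genes). FET4, a low-affinity iron and zinc transporter, rose by 0.27 in AhPDF1.1b yeast and by 0.97 in WT yeast. ZRC1, the vacuolar zinc transporter, fell by 0.38 in AhPDF1.1b yeast with 0.02 in WT yeast, a difference of -0.40 (SE 0.13, adjusted p = 0.0356) that missed the threshold with slide as a block (-0.30, adjusted p = 0.23) and also when any array other than 1 of AhPDF1.1b yeast on control medium was left out (adjusted p 0.0574 to 0.107 when it missed).

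In the iron regulon of Aft1, 20 of 25 genes rose with zinc in AhPDF1.1b yeast and 21 in WT yeast. The effect of 11 was more negative and that of 4 more positive in AhPDF1.1b yeast, or 6 and 3 with slide as a block. In all 60% were called, beside 33.6% of all genes. ARN1, a siderophore transporter, rose by 1.05 in AhPDF1.1b yeast and by 1.76 in WT yeast, and FIT3, a wall mannoprotein that helps take up siderophores, by 2.23 in AhPDF1.1b yeast and 2.78 in WT yeast. VHT1, the biotin transporter that Aft1 also reaches, was the leading exception, with a fall of 1.28 in WT yeast and -0.13 in AhPDF1.1b yeast, and BIO2, biotin synthase, fell by 1.22 in AhPDF1.1b yeast and fell by 2.20 in WT yeast. MCH5, the riboflavin transporter, had one of the larger rises of all, 2.17 in AhPDF1.1b yeast and 4.05 in WT yeast. Of 10 copper genes 5 were called (50%, beside 33.6% of all genes), all more negative. With slide as a block 6 copper genes were called, 1 more positive and 5 more negative. CCS1, the copper chaperone of superoxide dismutase, and MAC1, the activator of copper uptake, rose by 1.61 and 1.58 in WT yeast, with -0.13 and 0.28 in AhPDF1.1b yeast.

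Sulfur genes were mostly weakened rises. In sulfate assimilation and methionine synthesis 16 of 26 genes were more negative and 2 more positive in AhPDF1.1b yeast, and 15 were weakened rises. In all 69.2% were called, beside 33.6% of all genes. MET16, which reduces activated sulfate, gave 11.42 and 11.31 under zinc and 10.88 and 10.87 on control medium in AhPDF1.1b yeast, against 12.62 and 12.54 under zinc and 10.19 and 10.17 on control medium in WT yeast. It rose in both, with the zinc arrays of AhPDF1.1b yeast between the WT zinc arrays and all controls (difference -1.90, SE 0.10, adjusted p = 4.99e-07). MET1, which makes siroheme for sulfite reductase, rose by 1.73 in WT yeast with 0.16 in AhPDF1.1b yeast. Of 43 amino acid genes under the activator Gcn4, 13 were more negative and 6 more positive (44.2% called, beside 33.6% of all genes). HIS1, the first enzyme of histidine synthesis, rose by 1.42 in WT yeast with 0.02 in AhPDF1.1b yeast, and LYS9, late in lysine synthesis, fell by 2.18 in AhPDF1.1b yeast and fell by 3.37 in WT yeast.

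Among ammonium permeases MEP3 was reversed like MEP2 (-0.30 in AhPDF1.1b yeast and 1.38 in WT yeast), whereas MEP1, chosen after its values were seen, was not called (-0.80 in AhPDF1.1b yeast and -0.51 in WT yeast). AGP1, a broad amino acid permease, rose by 0.33 in AhPDF1.1b yeast and by 1.73 in WT yeast. Over the whole list of 24 genes under nitrogen catabolite repression 9 were called, 6 more negative and 3 more positive, a share of 37.5% beside 33.6% of all genes. FCY21, of the same permease family as FCY22, rose by 1.78 in WT yeast with 0.15 in AhPDF1.1b yeast, and the cytosine permease FCY2, chosen after its values were seen, was not called (0.06 in AhPDF1.1b yeast and 0.20 in WT yeast). URA6 and URA10, of pyrimidine synthesis, were reversed with differences of -1.47 and -1.25.

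Of 29 general stress genes under the activators Msn2 and Msn4, 16 were called (55.2%, beside 33.6% of all genes), 6 more negative and 10 more positive. Of 25 heat shock chaperone genes 5 were more negative and 5 more positive (20% each way, beside 16.0% and 17.7% of all genes). SSE2, an Hsp110 chaperone, rose by 0.54 in AhPDF1.1b yeast and by 2.25 in WT yeast, and SSA4, the inducible cytosolic Hsp70, by 1.67 in AhPDF1.1b yeast and 2.27 in WT yeast. In oxidative defence 10 of 31 genes were more negative and 8 more positive (58.1% called, beside 33.6% of all genes). OYE2, the relative of OYE3, had signals of 11.28 and 11.28 under zinc and 11.24 and 11.33 on control medium in AhPDF1.1b yeast, against 13.58 and 13.28 under zinc and 11.15 and 11.08 on control medium in WT yeast, so that only the WT zinc arrays stood out (difference -2.31, SE 0.13, adjusted p = 1.16e-06). GTT2, a glutathione transferase, rose by 0.78 in AhPDF1.1b yeast and by 2.27 in WT yeast, and SPI1, a wall protein of stress, by 1.52 in WT yeast with -0.03 in AhPDF1.1b yeast.

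Genes of the endoplasmic reticulum (ER), the entry to the secretory route, showed few differences in the folding group. Of 15 folding genes 3 were called, 1 more positive and 2 more negative, a share of 20% beside 33.6% of all genes. KAR2, the ER Hsp70 chaperone, had signals of 12.85 and 12.86 under zinc and 12.34 and 12.50 on control medium in AhPDF1.1b yeast, against 12.52 and 12.59 under zinc and 12.04 and 12.09 on control medium in WT yeast. It rose by 0.43 in AhPDF1.1b yeast and by 0.49 in WT yeast, and the difference of -0.06 (SE 0.10, adjusted p = 0.694) was within the spread of replicates. ERO1, which oxidises disulfide isomerase, was an exception, with a rise of 1.06 in WT yeast and -0.14 in AhPDF1.1b yeast, and so was CPR5, a prolyl isomerase, with a fall of 0.76 in WT yeast and -0.05 in AhPDF1.1b yeast. HAC1, the activator of the unfolded protein response, rose by 0.73 in WT yeast with 0.09 in AhPDF1.1b yeast. The array signal does not tell spliced from unspliced HAC1 mRNA, and the difference of -0.64 (adjusted p = 0.00593) missed the threshold with slide as a block (-0.43, adjusted p = 0.0624).

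In ER-associated degradation 4 of 14 genes were more positive and 3 more negative (50% called, beside 33.6% of all genes), against 1 more positive and 3 more negative with slide as a block. HRD1, its ubiquitin ligase, rose by 0.39 in AhPDF1.1b yeast with -0.03 in WT yeast (difference 0.42, adjusted p = 0.0103, and 0.35 with slide as a block, adjusted p = 0.0956). SSM4, a second ligase, fell by 0.30 in WT yeast with 0.15 in AhPDF1.1b yeast, and HLJ1, a J-protein, rose by 0.27 in AhPDF1.1b yeast and by 0.95 in WT yeast. Transport between ER and Golgi had 14 of 36 genes more positive and 1 more negative, with SEC13, of the vesicle coat, falling by 0.22 in AhPDF1.1b yeast and by 0.80 in WT yeast. In all 41.7% of these 36 were called, and 5 genes with slide as a block. Of 34 proteasome genes 14 were more positive and none more negative (41.2% called, beside 33.6% of all genes), and 5 were called with slide as a block. The list had a median effect of 0.11 in AhPDF1.1b yeast and -0.10 in WT yeast. PRE6, of the core, fell by 0.51 in WT yeast with 0.16 in AhPDF1.1b yeast, and RPN10, a ubiquitin receptor, rose by 0.33 in AhPDF1.1b yeast and fell by 0.17 in WT yeast.

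MFA1 fell by 2.50 in AhPDF1.1b yeast and by 2.52 in WT yeast (difference 0.02, SE 0.14), and 7 of the 19 genes of a-cell mating and pheromone response were called (36.8%, beside 33.6% of all genes), 4 more positive and 3 more negative. STE2 had signals of 8.74 and 8.79 under zinc and 10.57 and 10.49 on control medium in AhPDF1.1b yeast, against 7.94 and 7.60 under zinc and 8.92 and 8.81 on control medium in WT yeast. It was higher in AhPDF1.1b yeast on both media and fell further there (difference -0.67, SE 0.15, adjusted p = 0.0054), as did SST2, which dampens pheromone signalling (-0.89 in AhPDF1.1b yeast and -0.06 in WT yeast). STE6, the pheromone exporter, had a difference of 0.56 that missed the threshold with slide as a block (0.39, adjusted p = 0.158) and without either of 2 zinc arrays, 1 of each yeast (adjusted p = 0.0568 and 0.063). The alpha-cell gene MF(ALPHA)1 gave 6.28 and 6.32 under zinc and 7.66 and 7.61 on control medium in AhPDF1.1b yeast, against 5.84 and 6.00 under zinc and 8.41 and 8.36 on control medium in WT yeast. It fell by 1.34 in AhPDF1.1b yeast and by 2.46 in WT yeast, and STE3 rose by 0.40 in AhPDF1.1b yeast and fell by 0.19 in WT yeast. The part of these alpha-cell signals in the other results was not tested. The plasmid marker HIS3 rose by 0.31 in AhPDF1.1b yeast and by 0.83 in WT yeast (difference -0.51, adjusted p = 0.00837, and -0.37 with slide as a block, adjusted p = 0.0922).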

How the data were processed

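Total RNA of 8 samples was labelled with Cy3 and hybridised to one-colour Agilent yeast arrays by the authors, 1 sample per array. The values deposited by the authors were log2 signals, 1 per probe and array, made in R 2.14.2 with limma per the submitters' processing notes. Background correction, normalization and filtering: not given in the sources used here. Of 6227 probes, 2166 had no symbol in the annotation table and were kept under their probe name. For 125 genes an older symbol was replaced by that in the RefSeq table of assembly R64, used for names only, and the probes of 1 gene were averaged.

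The 4 condition means were fitted over all 8 arrays with limma 3.58.1 in R 4.3.3 (lmFit, then eBayes, with 6.36 prior and 4 residual degrees of freedom). P-values were adjusted by Benjamini-Hochberg over 6226 genes in each of 3 comparisons, with a threshold of 0.05. The number of arrays limits the precision, and slides come from the array labels. The steps were tested on simulated data. The members, the 49 gene lists and the tests were chosen with earlier results of these data known. Named were the 8 named genes with the largest difference in each of the 6 sets, up to 4 members of a described list by smallest p, the genes assayed in the study with related reference genes, and the plasmid and strain markers. Genes chosen after their values were seen are marked as such in the results. List genes without a probe of that name were not analysed here, and no sequence was used. Alternatives were slide or replicate number as a block, other scaling, filters, moderation and weights, a minimum difference, the 6 arrays compared within slides, and leaving out each array.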

Additional observations from a re-analysis of the deposited data

Results flagged for a closer look

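These results are given because the effect of zinc itself differed between the 2 yeasts by the test of that difference (limma, adjusted over all genes). The difference was called for 2095 genes, of which 1381 were weakened, 463 strengthened and 214 reversed. The values that follow are log2 differences, AhPDF1.1b yeast minus WT yeast, of the named genes that passed. With 2 arrays a condition no single array could be tested for standing apart.

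Weakened rises of carbon and glycerol metabolism and transport were those of INM1 (-3.67), PCL10 (-3.48), GPP2 (-2.68), HXT1 (-2.46), DAK2 (-2.41), ENO1 (-1.98) and HXT3 (-0.70). Redox and stress genes of this form were FRM2 (-2.48), YRO2 (-2.43), OYE2 (-2.31), SSE2 (-1.71), SPI1 (-1.56), GTT2 (-1.49) and SSA4 (-0.61). Metal and vitamin genes gave weakened rises for MCH5 (-1.88), CCS1 (-1.74), MAC1 (-1.30), HEM12 (-1.29), ARN1 (-0.71), FET4 (-0.70) and FIT3 (-0.54). Sulfur, nitrogen and amino acid genes did so for AMD2 (-2.88), MET16 (-1.90), FCY21 (-1.63), MET1 (-1.57), AGP1 (-1.40), HIS1 (-1.40) and the marker HIS3 (-0.51). In the ER they were ERO1 (-1.20), HLJ1 (-0.68) and HAC1 (-0.64).

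Weakened falls of the cell wall and cell cycle were CIS3 (1.84), EGT2 (1.61), TPM1 (0.91), DSE1 (0.89), TUB2 (0.79) and CLB1 (0.76). Those of lipid synthesis were FAS1 (1.44), OPI3 (1.24), ERG20 (1.13), ERG10 (1.09) and CHO2 (1.03). For translation they were ASC1 (1.58), RPS2 (1.24), RPL4A (1.03), EGD2 (0.85) and STM1 (0.85). Carbon and energy genes were GSY1 (1.45), CTT1 (1.40), HXT6 (1.32), HXT7 (1.01), GPD1 (0.97), ATP7 (0.84), LPD1 (0.71) and IDH1 (0.69). Zinc, vitamin and amino acid genes were ZPS1 (1.59), HEM15 (1.25), LYS9 (1.19), VHT1 (1.15), THI5 (1.08), THI12 (0.97), BIO2 (0.97), THI11 (0.87), ZRT1 (0.73) and THI13 (0.60). Mating and secretory genes were MF(ALPHA)1 (1.13), CPR5 (0.71), PRE6 (0.67), SEC13 (0.58), STE6 (0.56) and SSM4 (0.44).

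Strengthened rises were those of PHO84 (1.58), OLE1 (1.39), PHO89 (1.36), ICL1 (1.27), ERG25 (1.23), ERG3 (1.13), NRG2 (1.08), RTA1 (1.05), TIR4 (1.04), MCM2 (0.98) and HRD1 (0.42). Strengthened falls were those of THI4 (-3.40), PHO3 (-1.77), MRH1 (-1.25), PET18 (-1.23), PGK1 (-1.07), TDH3 (-1.02), GDH3 (-0.98), YAT1 (-0.97), GPP1 (-0.83), SST2 (-0.83), STE2 (-0.67), TPI1 (-0.52) and ZRC1 (-0.40).

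A fall in AhPDF1.1b yeast with a rise in WT yeast was measured for MEP2 (-2.88), URH1 (-2.88), FCY22 (-2.77), ENO2 (-2.61), OYE3 (-2.34), YGP1 (-2.23), TDH2 (-1.86) and SCS7 (-1.79). It was also measured for MEP3 (-1.68), URA6 (-1.47), SUR2 (-1.42), URA10 (-1.25), PFK2 (-1.22), THI20 (-1.17), COX7 (-0.86) and ERG8 (-0.74). A rise in AhPDF1.1b yeast with a fall in WT yeast was measured for TIR3 (1.85), DSE4 (1.69), HXT4 (1.59), SUC2 (1.56), SPL2 (1.43), FAS2 (1.37), GPH1 (1.29) and ACC1 (1.29). The others of this form were ASH1 (1.22), DAN1 (1.12), RPS3 (1.06), UGP1 (1.04), GSY2 (0.73), STE3 (0.59) and RPN10 (0.50).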

How the results depend on the processing

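A block for slide gave counts of called, weakened, strengthened and reversed effects of 1258, 872, 245 and 139, and with the 6 arrays compared within slides 1382 called, 273 strengthened and 106 reversed, against 2095, 1381, 463 and 214. The block for slide and the 6 arrays within slides gave the same difference for each named gene, with another error term. They are not independent alternatives. A minimum difference of 0.5 left 1160 called, 767 weakened and 194 strengthened, and a minimum of 1 left 246, 147, 31 and 68. Classes by the estimates alone gave 261 strengthened and 902 reversed effects. Leaving out each array in turn gave 1584 to 2019 called, 1044 to 1332 weakened, 327 to 445 strengthened and 149 to 228 reversed. Deviations of same-numbered arrays correlated at -0.533 to 0.536 between conditions. The values were negative for each pair with AhPDF1.1b yeast under zinc and positive for each pair without it. Whether samples were paired across conditions in another order than their numbers was not tested. The replicate block, which used the numbers as given, called 1933 genes. Every other count, zinc in each yeast included, stayed within 1.5 times its main value under quantile normalization, centring, leaving out the dimmest genes, trend and robust moderation, array weights or, chosen after seeing the data, leaving out signals near background or over 14. Keeping the brightest probe changed no count, as a single gene had more than 1 probe. Of 126 called genes named, 120 kept their call and sign in each of the 16 alternatives that held them. Dim genes such as DAN1 were not tested in the alternative without the dimmest genes. GDH3, HAC1, HIS3, HRD1, STE6 and ZRC1 lost the call with slide as a block. None of the 126 changed sign. URA3, TUB1 and BAR1, which were not called and had differences near 0, did change sign with slide as a block. The precision is limited by 2 arrays a condition, and whether signals near background or near the upper end of the scale understate differences was not tested.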
